A study of Homo sapiens with 12 samples.

Results

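The BET inhibitor OTX015 was examined in cells that also received the MNK inhibitor SEL201. The comparison sets 3 libraries of cells given both agents (COMBO) against 3 libraries of cells given SEL201 without OTX015, which makes 6 of the 12 libraries of the series. They were chosen by their treatment labels, and libraries with the same number (1, 2 or 3) were taken as pairs. All 12 libraries come from A375, an established human melanoma cell line with an activating BRAF mutation, so treated and control cells share that mutation. SEL201 was given at 2.5 µM and OTX015 at 50 nM, and the treatment lasted 72 h. The other 6 libraries, 3 of cells given OTX015 without SEL201 and 3 of UNTREATED cells (labelled DMSO, the solvent of the drugs), show the effect of OTX015 where SEL201 is absent. The labels do not say whether a number marks a separate culture or day, and the p-values therefore describe how far such libraries vary, which may be technical variation alone. All cells come from 1 line, and each agent was used at 1 dose and 1 time.

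BET proteins carry bromodomains that bind acetylated histones, and they bring the elongation kinase P-TEFb to promoters and enhancers. BET inhibitors displace them from chromatin, and are known to lower inflammatory and other genes that depend on strong enhancers and to raise histone genes with polyadenylated transcripts. MNK1 and MNK2 are kinases downstream of ERK and p38 that phosphorylate eIF4E, the protein that binds the mRNA cap, and so act on translation rather than on chromatin. The design text of the series gives the molecular basis of combining both kinds of inhibitor in melanoma with mutant BRAF as its question, and the comparison here isolates what the BET inhibitor adds.

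The table holds 8579 genes, all of which passed the filter on low counts. Their mean counts run from 78.67 to 9159, and genes above or below that window are not covered. Not analysed here either were BRD2, BRD3, MKNK2, EIF4E and MYC. Column totals were 15146071 to 23247709 in COMBO and 16382375 to 22626418 in SEL201. These sums cover the listed genes alone, so they are no measure of how deeply a library was sequenced. Every level is given in CPM, the count of a gene scaled to the same total in every library, with TMM scaling. Of 10 melanocyte markers 6 were measured, with a summed level of 522 to 548 CPM in SEL201 and 485 to 490.3 CPM in COMBO. Most of that sum was GPNMB, S100B and MITF, while the other 3 lay at 3.996 to 6.58 CPM on average and SOX10, TYR, TYRP1 and DCT were not analysed here. Markers of other cell types were mostly not analysed here. Those measured were 4 of 7 fibroblast markers, whose summed level was 99.2 to 111 CPM in SEL201 and 63.9 to 65.6 CPM in COMBO, 1 keratinocyte marker (KRT14, 77.7 to 88.5 CPM and 36 to 42 CPM), 1 endothelial marker (KDR, 66.1 to 109 CPM in SEL201 and 101 to 157 CPM in COMBO) and 1 immune marker (LYZ, 29.3 to 32.4 CPM and 19.5 to 22.6 CPM). KDR was called higher with the block (log2 change 0.58, adjusted p = 8.3e-10, and 0.082 without it), with groups that overlap. None of the measured markers was at 0 in these libraries, and the part of other cell types in the results was not tested. In bulk RNA, fewer cells of a type and less RNA per cell cannot be told apart.

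OTX015 changed a large share of the measured genes in SEL201-treated cells, mostly by little, and the large changes were mostly falls. The edgeR quasi-likelihood test with the number as a block (adjusted p under 0.05, Benjamini-Hochberg) called 2233 genes higher in COMBO (26% of those tested) and 2351 lower (27.4%). The median fold change was 1.19 among the genes called higher and 1.3 among those called lower. At least 2-fold changes numbered 38 upward (0.443% of genes tested) and 229 downward (2.67%), at least 4-fold changes 1 and 14, and at least 8-fold changes 0 and 3. Of the 4584 genes called, 4485 (97.8%) moved the same way in all 3 number pairs. All COMBO libraries lay above all SEL201 libraries for 2004 genes (23.4%) and below them for 2137 (24.9%). The median log2 change over all genes tested was 0.001. Without the replicate block the test called 1615 genes higher and 1823 lower.

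**Figure D1:**
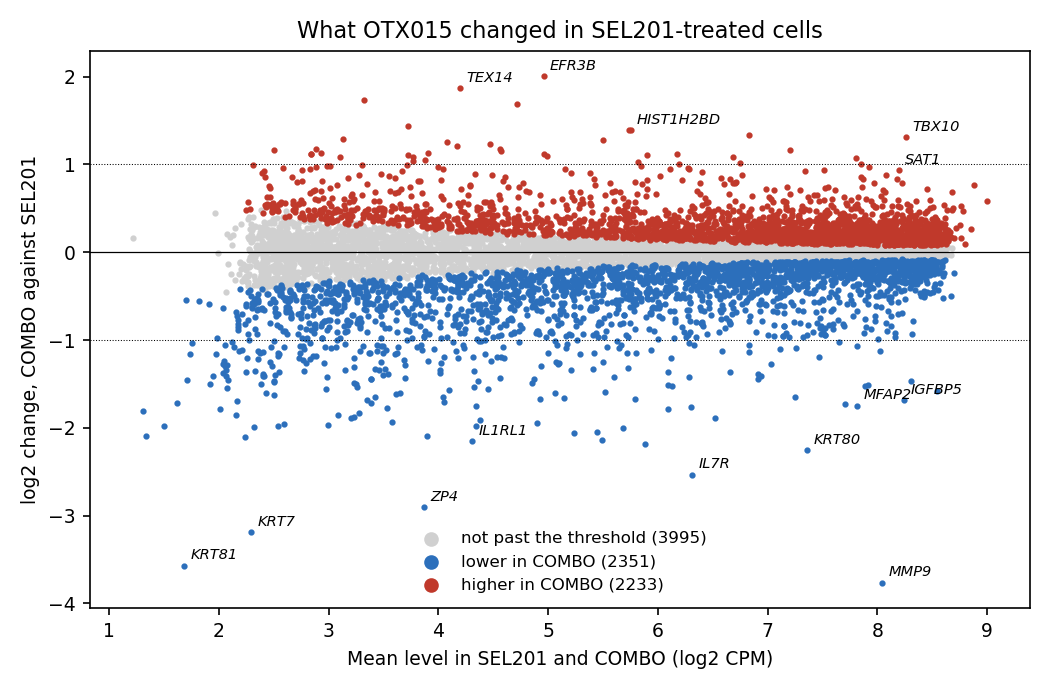
Log2 change of each of the 8579 genes, COMBO against SEL201 (vertical axis), by its mean level in these libraries in log2 CPM (horizontal axis), with red for the 2233 genes called higher, blue for the 2351 called lower and grey for the rest; dotted lines mark 2-fold. The points reach lower than they reach high, with MMP9 at -3.76 and EFR3B at 2.01.

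MMP9, which encodes the gelatinase that cleaves basement membrane collagen, fell the most. It measured 444, 393 and 637 CPM in the SEL201 libraries 1 to 3 and 27.3, 30.7 and 52.8 CPM in the COMBO libraries, a 13.6-fold fall (log2 change -3.76, SE 0.06, adjusted p = 1.9e-29). In both groups the number 3 library was the highest, and the groups lay far apart. KRT81 and KRT7, keratins of hair and of simple epithelia, followed, but at low levels. KRT81 measured 6.64, 4.71 and 6.28 CPM in SEL201 and 0.259, 0.231 and 1.19 CPM in COMBO (log2 change -3.57, SE 0.32, adjusted p = 7e-11), which in COMBO rests on 5 to 18 counts a library. KRT7 measured 5.76, 7.06 and 14 CPM and 0.905, 0.925 and 0.86 CPM (log2 change -3.19, SE 0.21, adjusted p = 1.2e-13), on 13 to 21 counts a COMBO library. KRT80, another keratin gene, was abundant, with 219.9, 220.2 and 376 CPM in SEL201 and 41.8, 52.8 and 76.6 CPM in COMBO, 4.76-fold lower (log2 change -2.25, SE 0.05, adjusted p = 9.2e-25).

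IL7R encodes the interleukin-7 receptor chain, and fell from 122, 120.1 and 166 CPM to 21.9, 23.3 and 24.5 CPM, or 5.78-fold (log2 change -2.53, SE 0.06, adjusted p = 6.8e-24). IL1RL1 encodes the receptor for interleukin-33, and fell from 37, 25.1 and 34.1 CPM to 6.46, 5.55 and 10.5 CPM, or 4.44-fold (log2 change -2.15, SE 0.15, adjusted p = 3.4e-13). ZP4, a zona pellucida glycoprotein gene, measured 24.4, 22.2 and 31 CPM and 3.27, 3.1 and 3.9 CPM (log2 change -2.90, SE 0.15, adjusted p = 1.5e-16). For all 3 genes every COMBO library lay well below the lowest SEL201 library. The other falls among the 12 largest were 4.12-fold to 4.54-fold. They were SEMA6B, a transmembrane semaphorin, P2RY6, a receptor for uridine nucleotides, ARHGDIB, a regulator of small GTPases, NNMT, which methylates nicotinamide, and FST, which encodes the activin antagonist follistatin.

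Several abundant secreted and matrix genes fell about 3-fold. CCL2, the chemokine that attracts monocytes, measured 532, 545 and 601 CPM in SEL201 and 159.7, 201 and 201 CPM in COMBO (log2 change -1.58, SE 0.04, adjusted p = 5.9e-23). CTSS, the lysosomal protease cathepsin S, measured 333, 317 and 408 CPM and 111, 119.9 and 136 CPM (log2 change -1.53, SE 0.04, adjusted p = 5e-23). The groups of both genes were far apart. IGFBP5, which binds insulin-like growth factors, measured 502, 650.4 and 237 CPM and 163, 188 and 78.6 CPM (log2 change -1.68, SE 0.05, adjusted p = 6.2e-22). Its number 3 library was the lowest in each group, and the fall was of like size in every pair. MFAP2, a microfibril protein, fell 3.35-fold, CEMIP, a hyaluronan-degrading protein, 3.31-fold and KIF1A, an axonal kinesin, 3.13-fold.

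**Figure D2:**
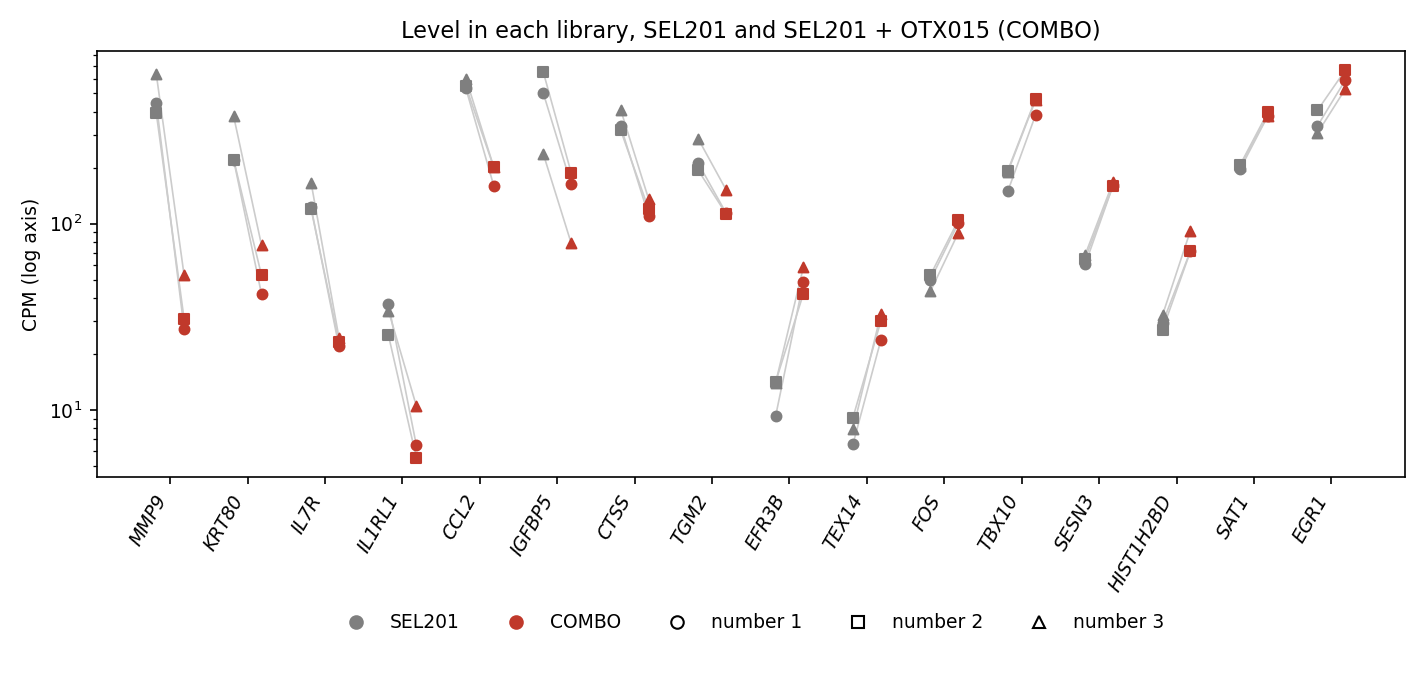
Level of 16 genes in CPM (log axis) in each SEL201 library (grey) and COMBO library (red), with the marker shape for the library number and a line joining each number pair. MMP9, KRT80, IL7R, IL1RL1, CCL2, IGFBP5, CTSS and TGM2 are lower in every COMBO library than in the SEL201 library of its number, and the other 8 genes are higher.

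EFR3B, which encodes a membrane anchor of a phosphatidylinositol 4-kinase complex, rose the most. It measured 9.24, 14.1 and 14 CPM in SEL201 and 48.9, 42.2 and 58.5 CPM in COMBO, a 4.02-fold rise (log2 change 2.01, SE 0.11, adjusted p = 1.9e-15). TEX14, known for its part in the bridges between germ cells, went from 6.56, 9.11 and 7.87 CPM to 23.7, 30 and 32.8 CPM (log2 change 1.87, SE 0.12, adjusted p = 7.8e-14). For both genes the lowest COMBO library was more than 2-fold above the highest SEL201 library. Other rises among the 12 largest were 2.32-fold to 2.71-fold. They were EDIL3, a matrix protein that binds integrins, NXN, a thioredoxin-like redox protein, SESN3, a sestrin, TBX10, a T-box factor, SYT12, a synaptotagmin, FAM46C, a poly(A) polymerase, STOX1 and the histone genes HIST1H2BD and HIST2H2BE.

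Among the 8 largest rises of genes of at least 200 CPM, the largest was 2.48-fold. TBX10 measured 149, 193 and 189.5 CPM and 384, 468 and 462 CPM (log2 change 1.31, SE 0.05, adjusted p = 7.4e-20). SAT1, which acetylates the polyamines spermidine and spermine, measured 196, 206 and 205 CPM and 379.7, 397 and 381 CPM (log2 change 0.93, SE 0.04, adjusted p = 1.4e-19). Both genes had groups that did not overlap, and the SAT1 values within a group lay within a few percent of each other. AFAP1L2 rose 2.24-fold, NUDT8 2.01-fold, the secreted protease gene HTRA1 1.97-fold, HIST1H2AC 1.92-fold and SLC35F1 1.91-fold.

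TGM2, which the title of the series names and which encodes the crosslinking enzyme transglutaminase 2, fell when OTX015 was added. It measured 211, 194 and 286 CPM in SEL201 and 114, 113 and 152 CPM in COMBO, 1.81-fold lower (log2 change -0.86, SE 0.04, adjusted p = 3.7e-18). No COMBO value reached the lowest SEL201 value. Of the MNK kinases only MKNK1, the gene of MNK1, was measured. It rose from 238, 260.1 and 240.5 CPM to 314, 319 and 324 CPM (log2 change 0.37, SE 0.04, adjusted p = 4.1e-10). EIF4A1, the helicase that works beside eIF4E, measured 42.5, 34.9 and 56.8 CPM and 51, 49.4 and 77.4 CPM (log2 change 0.40, SE 0.07, adjusted p = 1.9e-05, and 0.15 without the replicate block). Its groups overlap, since the number 3 library was the highest of each, and it was higher in COMBO in every pair.

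Histone genes rose together. All 11 measured of the 26 listed histone genes were called higher, and in all 11 every COMBO library lay above every SEL201 library. Their median log2 change was 0.945, against 0.001 over all genes tested. Among all genes tested, 26% were called higher, and 23.4% had all COMBO libraries above all SEL201 libraries. Most replication-dependent histone transcripts end in a stem loop, so a poly(A) library holds mainly their polyadenylated forms, and reads of near-identical copies could be split between genes. The promoters of 3 of them, the pair with the lowest p among the H2B genes and the H2A gene with the lowest p of all 11, are shown from RefSeq (build GRCh38.p14), 250 bases before the start to 50 after it. Capitals mark the CCAAT box (CCAAT, both strands), which 9 of the 10 histone promoters in the RefSeq table hold, against 36.6% of the promoters of genes tested and 34.6% of all in the table.
HIST1H2BD, plus strand, chr6:26157871-26158170: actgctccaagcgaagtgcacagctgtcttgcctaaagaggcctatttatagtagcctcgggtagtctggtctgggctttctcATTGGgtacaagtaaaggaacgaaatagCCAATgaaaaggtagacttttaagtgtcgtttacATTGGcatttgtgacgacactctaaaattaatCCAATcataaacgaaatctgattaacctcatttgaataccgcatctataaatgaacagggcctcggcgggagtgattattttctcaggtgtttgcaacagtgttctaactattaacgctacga
HIST2H2BE, minus strand, chr1:149886633-149886932: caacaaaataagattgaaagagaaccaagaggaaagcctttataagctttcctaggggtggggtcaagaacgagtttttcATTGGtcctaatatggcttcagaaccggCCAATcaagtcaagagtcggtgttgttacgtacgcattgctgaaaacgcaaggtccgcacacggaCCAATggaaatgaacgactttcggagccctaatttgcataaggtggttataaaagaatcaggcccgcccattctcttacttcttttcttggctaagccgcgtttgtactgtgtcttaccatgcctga
HIST1H2AC, plus strand, chr6:26123922-26124221: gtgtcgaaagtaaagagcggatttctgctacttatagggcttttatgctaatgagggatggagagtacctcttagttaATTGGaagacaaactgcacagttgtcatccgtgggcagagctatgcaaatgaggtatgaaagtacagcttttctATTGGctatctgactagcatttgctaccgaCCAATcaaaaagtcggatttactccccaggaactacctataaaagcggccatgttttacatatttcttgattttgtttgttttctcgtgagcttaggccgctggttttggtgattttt

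HIST1H2BD, an H2B gene, measured 29.4, 27 and 32.4 CPM in SEL201 and 71.5, 71.2 and 91.9 CPM in COMBO (log2 change 1.39, SE 0.07, adjusted p = 3e-16). HIST2H2BE, another H2B gene, measured 11.6, 12.3 and 15.9 CPM and 28.8, 28.2 and 36.2 CPM (log2 change 1.23, SE 0.10, adjusted p = 6e-12). HIST1H2AC, an H2A gene and the most abundant of the 3, measured 109, 127 and 142 CPM and 223, 239.5 and 260.5 CPM (log2 change 0.94, SE 0.04, adjusted p = 5.3e-17). The 3 genes, whose promoters hold 4, 3 and 3 matches, went up in every pair. The linker histone gene HIST1H1C (0.58) rose as well.

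Genes of transcription elongation moved little. Of the super elongation complex, which frees paused polymerase, 4 of 5 measured genes were called higher, namely ELL2 (0.29), MLLT3 (0.24), AFF1 (0.30) and EAF2 (0.40). ELL2 measured 244, 243 and 261 CPM in SEL201 and 282, 312 and 324 CPM in COMBO, with no overlap. The acetyltransferase gene KAT2B (0.38) and the Mediator gene MED23 (0.17) rose. Over all genes tested 26% were called higher.

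Interferon-response genes fell, most of them without overlap between the groups. Interferons act through JAK and STAT kinases and factors on genes whose promoters carry the ISRE element. Of 31 antiviral effector genes measured, 28 were called lower and 1 higher, with a median log2 change of -0.627. All 5 measured sensors of foreign RNA or DNA were called lower, with a median of -0.967. Over all genes tested 27.4% were called lower, 24.9% had all COMBO libraries below all SEL201 libraries, and the median was 0.001. The promoters below show the ISRE (searched on both strands as GAAA, any 2 bases and GAAA again, in capitals) in 3 genes that fell and 2 that rose. In the RefSeq table (GRCh38.p14) 24 of the 31 effectors have a promoter, and 17 of these hold a match, against 2.71% of the promoters of genes tested and 3.57% of all. Fewer than 80% of the 31 have a promoter there, so this share is void for the group and describes only the 24.
GBP1, minus strand, chr1:89065159-89065458: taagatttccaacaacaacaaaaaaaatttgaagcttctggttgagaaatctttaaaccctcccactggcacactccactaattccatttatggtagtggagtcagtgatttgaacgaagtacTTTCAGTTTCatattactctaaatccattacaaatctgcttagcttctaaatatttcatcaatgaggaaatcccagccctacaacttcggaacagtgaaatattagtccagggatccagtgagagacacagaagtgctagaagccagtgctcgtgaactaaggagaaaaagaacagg
IFI44, plus strand, chr1:78649539-78649838: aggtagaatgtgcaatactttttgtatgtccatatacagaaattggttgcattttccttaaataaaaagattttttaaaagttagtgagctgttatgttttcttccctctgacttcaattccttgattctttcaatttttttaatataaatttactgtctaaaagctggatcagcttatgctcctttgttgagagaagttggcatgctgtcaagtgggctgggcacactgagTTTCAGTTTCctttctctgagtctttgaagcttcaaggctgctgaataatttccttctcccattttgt
IFIT3, plus strand, chr10:89327747-89328046: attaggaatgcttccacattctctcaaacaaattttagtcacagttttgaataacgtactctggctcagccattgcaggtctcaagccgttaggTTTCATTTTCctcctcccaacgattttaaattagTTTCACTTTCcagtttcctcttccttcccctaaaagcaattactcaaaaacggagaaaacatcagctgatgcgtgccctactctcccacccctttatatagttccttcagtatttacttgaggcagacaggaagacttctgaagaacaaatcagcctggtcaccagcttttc
IFI6, minus strand, chr1:27672143-27672442: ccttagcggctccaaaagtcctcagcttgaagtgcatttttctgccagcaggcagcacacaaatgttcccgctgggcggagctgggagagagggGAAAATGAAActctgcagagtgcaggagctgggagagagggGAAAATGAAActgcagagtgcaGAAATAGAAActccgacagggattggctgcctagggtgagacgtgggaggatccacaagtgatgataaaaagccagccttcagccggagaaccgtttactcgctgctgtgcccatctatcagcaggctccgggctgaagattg
SOCS1, minus strand, chr16:11256155-11256454: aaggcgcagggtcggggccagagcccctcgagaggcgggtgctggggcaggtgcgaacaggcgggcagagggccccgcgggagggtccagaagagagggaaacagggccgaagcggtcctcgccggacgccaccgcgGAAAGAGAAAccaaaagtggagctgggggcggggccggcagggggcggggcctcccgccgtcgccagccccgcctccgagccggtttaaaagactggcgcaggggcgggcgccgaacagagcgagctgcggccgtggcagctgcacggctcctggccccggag

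GBP1, a GTPase that acts on intracellular pathogens, measured 51.4, 48.1 and 44.9 CPM in SEL201 and 20.4, 17.6 and 22.2 CPM in COMBO (log2 change -1.28, SE 0.09, adjusted p = 1.2e-13). IFI44 measured 104, 97.3 and 90.2 CPM and 40.3, 44.9 and 41.8 CPM (log2 change -1.20, SE 0.06, adjusted p = 8.3e-17). IFIT3, which with its relatives recognises foreign RNA, measured 103, 94.6 and 107 CPM and 65.5, 62.4 and 69.3 CPM (log2 change -0.63, SE 0.05, adjusted p = 1e-11). In all 3 the groups were apart. IFI6, with 3 ISRE matches in its promoter, was the effector called higher: it measured 106, 97.7 and 115 CPM and 122, 117 and 116 CPM (log2 change 0.16, SE 0.05, adjusted p = 0.01, and 0.054 without the replicate block). That call was also lost without SEL201 library 1, SEL201 library 2 or COMBO library 2 (adjusted p = 0.071, 0.11 and 0.052). ISG20, an RNA exonuclease with the lowest p of the effectors, fell 1.95-fold. GBP2 (-0.94), a relative of GBP1, also fell.

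Among the sensors, TMEM173, the gene of STING, which responds to cytosolic DNA, fell from 112, 116 and 113 CPM to 41.2, 44.1 and 41.9 CPM (log2 change -1.42, SE 0.06, adjusted p = 4.1e-18). TLR3, which binds double-stranded RNA in endosomes, changed by -1.15 on the log2 scale. The RNA helicase genes IFIH1 (-0.97) and DDX58 (-0.34) and their relative DHX58 (-0.29) were lower too. The call of DHX58 was lost without SEL201 library 1, SEL201 library 2 or COMBO library 2 (adjusted p = 0.068, 0.076 and 0.057). Upstream genes did not fall as a group. Of 9 measured receptors, kinases and transcription factors 4 were called higher and 3 lower, against 26% and 27.4% of all genes. IRF7, the factor that drives interferon genes, rose from 68.3, 68.7 and 77.9 CPM to 118, 119 and 132 CPM (log2 change 0.78, SE 0.05, adjusted p = 3.3e-13). SOCS1, the inhibitor of JAK signalling, rose from 5.11, 4.91 and 4.15 CPM to 10.2, 8.97 and 12.6 CPM (log2 change 1.13, SE 0.17, adjusted p = 1.3e-06). STAT2 (0.27) rose as well, while SOCS3 (-0.37) and IRF2 (-0.14) fell.

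**Figure D3:**
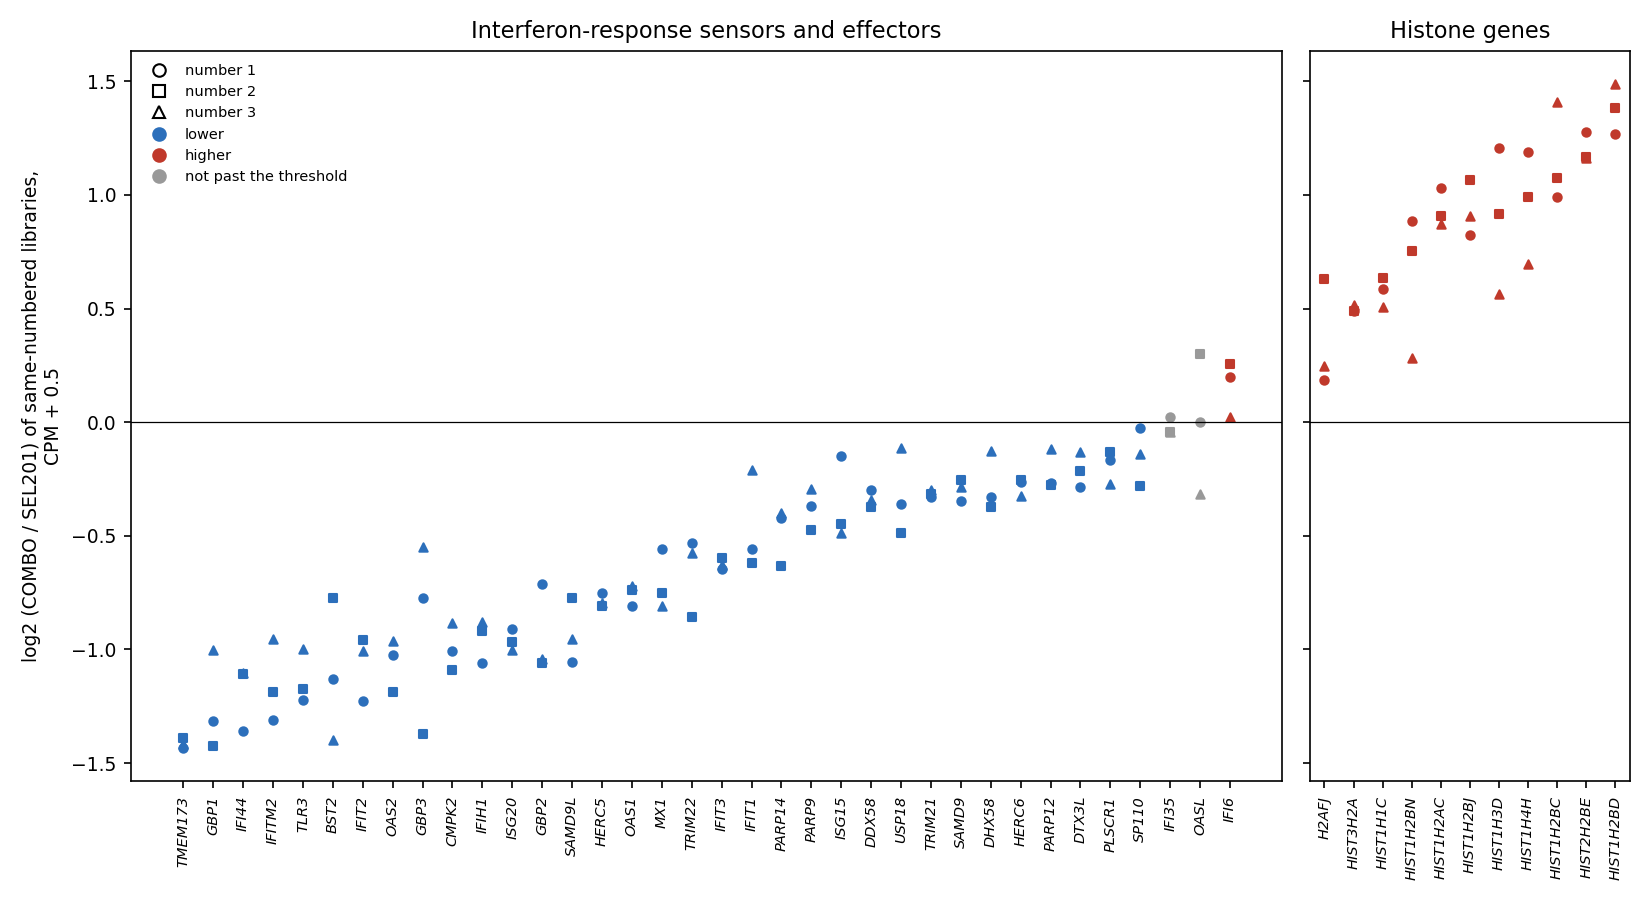
Log2 ratio of COMBO to SEL201 for libraries of the same number (marker shape; CPM + 0.5), for the 36 sensor and antiviral effector genes measured (left) and the 11 histone genes (right), in blue where called lower, red where called higher and grey otherwise. All sensors and 28 effectors are blue, IFI6 is the red effector, and every histone point is above 0.

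Genes of class I antigen presentation, which loads peptides onto HLA molecules, were lower in COMBO. Of 9 measured 8 were called lower, against 27.4% of all genes (median log2 change -0.337). PSMB8, a subunit of the immunoproteasome, measured 291, 244 and 295 CPM and 182, 178 and 162 CPM (log2 change -0.67, SE 0.05, adjusted p = 1.2e-12). ERAP2, which trims peptides, measured 26.3, 25.6 and 32.4 CPM and 14, 15.3 and 11.8 CPM (log2 change -1.01, SE 0.10, adjusted p = 1.7e-09). The groups of both were apart. The peptide transporter genes TAP2 (-0.34) and TAP1 (-0.25) fell less. All 3 measured checkpoint ligand genes fell: TNFRSF14 (-1.33), the ligand of BTLA, NECTIN2 (-0.67), a ligand of TIGIT, and CD274 (-0.31), which encodes PD-L1. CD274 measured 35.2, 33 and 33.7 CPM in SEL201 and 28.6, 25.7 and 28 CPM in COMBO. In the class II pathway CTSS fell, as above, LGMN (0.74), another lysosomal protease, rose, and the other 2 measured genes did not pass.

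Inflammatory ligands and receptors were lower for the most part. Of 8 cytokine genes measured 6 were called lower and 2 higher (median -1.089), and of 18 cytokine receptor genes 14 were called lower (median -0.271), against 27.4% of all genes. CSF2, which encodes GM-CSF, measured 82.8, 89.4 and 124 CPM and 32.7, 39.6 and 41.2 CPM (log2 change -1.36, SE 0.07, adjusted p = 5.2e-16). GDF15, a stress-induced cytokine, measured 30.1, 28.2 and 30.4 CPM and 8.79, 8.69 and 14 CPM (log2 change -1.53, SE 0.10, adjusted p = 2.1e-13). The cytokine genes IL32 (-1.56) and CSF1 (-0.81), the latter for the macrophage growth factor, fell as well. The 2 called higher were TNFSF9 (0.41) and IL11 (0.24, adjusted p = 0.1 without the block). Among receptors, besides IL7R and IL1RL1, IL18R1 (-1.95) and IL27RA (-0.99) fell, and LIFR (0.52), the receptor of leukaemia inhibitory factor, rose.

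Of 7 chemokine genes 4 were called lower and none higher, against 27.4% and 26% of all genes. They were CCL2, the neutrophil attractants CXCL3 (-0.80) and CXCL2 (-0.44), and CXCL10 (-0.74), an interferon-induced T cell attractant. Of 6 NF-kB subunits and inhibitors only TNFAIP3 (-0.36) and BCL3 (-0.28) passed, both lower. In prostaglandin metabolism the direction differed by step. PTGS2, the inducible cyclooxygenase COX-2, measured 196, 211 and 158 CPM and 86.7, 101 and 76.3 CPM (log2 change -1.10, SE 0.05, adjusted p = 6.9e-17), with no overlap. PTGES (-1.06), the prostaglandin E synthase, fell, and HPGD (0.81) and PTGR1 (0.29), which inactivate prostaglandins, rose.

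Early genes of the RAS-MAPK pathway, which the BRAF mutation drives, did not move one way. Of 8 measured transcription factor outputs 5 were called higher and 3 lower, against 26% and 27.4% of all genes. EGR1 measured 334, 406 and 306 CPM in SEL201 and 589.7, 667 and 528 CPM in COMBO (log2 change 0.77, SE 0.05, adjusted p = 2.1e-13), and FOS measured 49.9, 52.9 and 43.3 CPM and 101, 104 and 89.1 CPM (log2 change 1.01, SE 0.07, adjusted p = 3e-13). For both immediate early genes the lowest COMBO library was above the highest SEL201 library. FOSL2 (-0.31), MAFF (-0.35) and EGR2 (-0.51) fell. Of 7 feedback genes 2 were called higher and 4 lower, with DUSP5 (0.33) and DUSP1 (0.26) up and the phosphatase genes DUSP2 (-0.52), DUSP16 (-0.44) and DUSP10 (-0.24) down. In the cascade itself MAPK3 (-0.50), the gene of ERK1, fell and KSR1 (0.42), a scaffold, rose, while BRAF changed by -0.03 (adjusted p = 0.55).

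Melanocyte lineage factors were higher or did not pass the test. Of 9 measured 5 were called higher, 3 without the replicate block, and none lower (median 0.227), against 26% and 27.4% of all genes. TBX2, a T-box repressor, measured 425, 401 and 404 CPM and 620.1, 564 and 659 CPM (log2 change 0.58, SE 0.05, adjusted p = 6e-12), and ID4 (0.95), an inhibitor of helix-loop-helix factors, and SNAI2 (0.57), a neural crest factor, rose. MITF, the master factor of the lineage, measured 144, 159.5 and 136 CPM and 155, 158 and 149 CPM (log2 change 0.07, SE 0.04, adjusted p = 0.2). Pigment genes did not follow: of 13 measured, 1 was called higher and 4 lower, among them GPNMB (-0.49), RAB27A (-0.42) and MLPH (-0.64) down, which act in melanosomes and their transport, and PMEL (0.48, adjusted p = 0.09 without the block) up. The PMEL call rests on few CPM, and without COMBO library 2 the log2 change was 0.10 (adjusted p = 0.73). Of other lineage genes CDH19 (-1.41), a Schwann cell and melanocyte cadherin, fell and S100B (0.56) rose. Of 11 genes of the invasive melanoma state 9 were called lower, 5 without the replicate block, and 1 higher (median -0.438). NNMT and LOXL4 (-0.79), FOXF2 (-0.85) and NUAK1 (-0.75) led the falls, and the exception was CTGF (0.23, adjusted p = 0.32 without the block). DKK1, a secreted Wnt inhibitor, was called lower with the block only (log2 change -0.37, SE 0.05, adjusted p = 6.9e-07, and 0.28 without the replicate block).

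**Figure D4:**
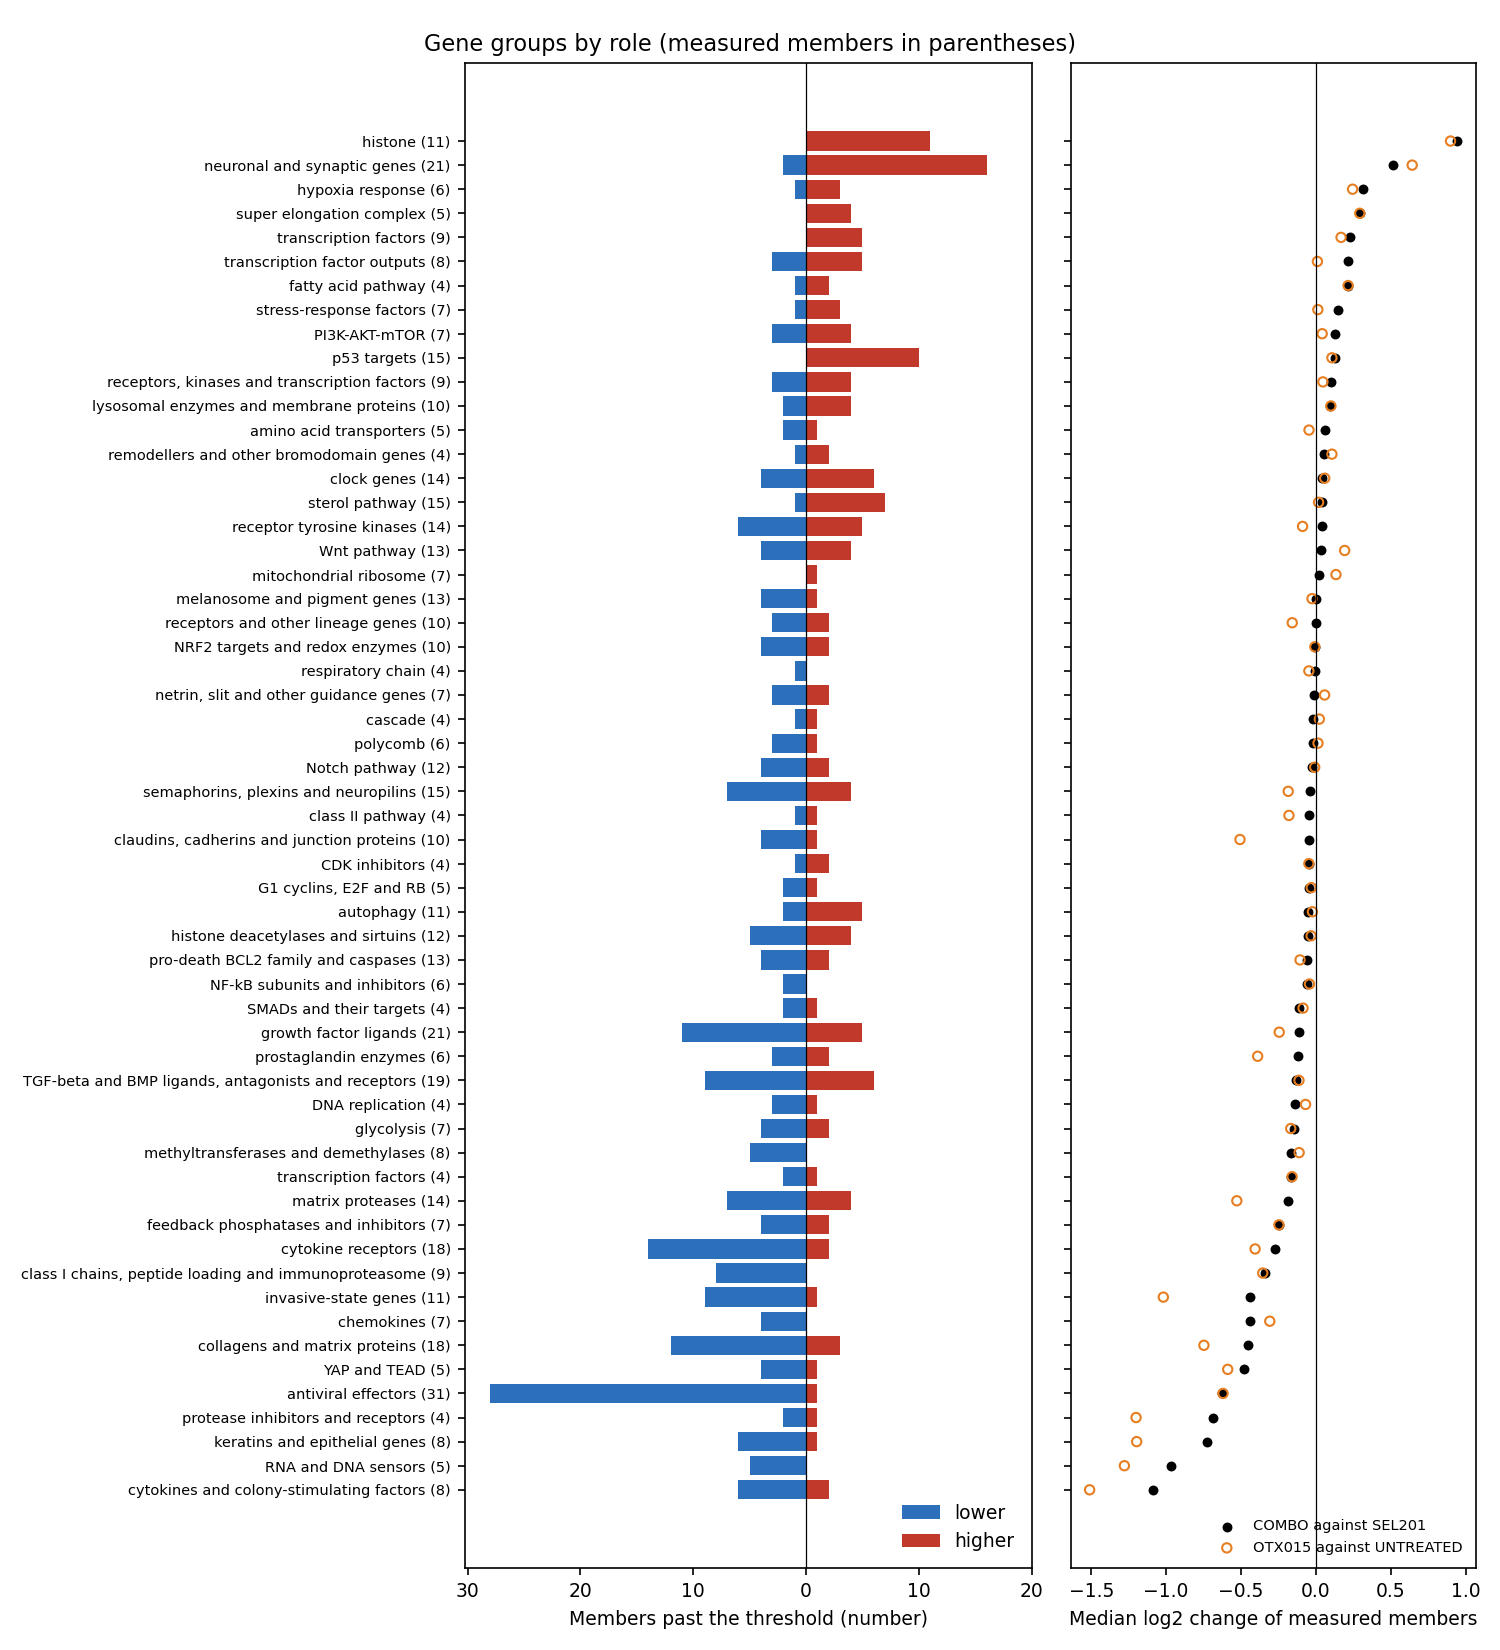
Groups of genes by role with at least 4 measured members (number in parentheses): the left panel counts members called higher (red) or lower (blue) in COMBO against SEL201, and the right panel gives the median log2 change of the measured members there (black) and in OTX015 against UNTREATED (orange). Histones are at the top with 11 of 11 higher, and the longest blue bar is that of the antiviral effectors with 28 lower.

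Matrix genes fell more often than they rose. Of 18 collagens and matrix proteins 12 were called lower and 3 higher (median -0.452), against 27.4% and 26% of all genes. LAMB3, a laminin chain of basement membranes, measured 264, 257 and 288 CPM and 124, 133 and 142 CPM (log2 change -1.02, SE 0.04, adjusted p = 3.5e-19). COL6A3, a collagen VI chain, measured 181, 158 and 184 CPM and 66.5, 60.5 and 74.4 CPM (log2 change -1.38, SE 0.05, adjusted p = 6.7e-20). Both genes had groups that did not overlap. HAPLN1 (0.53), which links hyaluronan to proteoglycans, EDIL3 and FBN1 (0.40), a fibrillin, rose. In the same libraries 3 of the 4 measured fibroblast markers were called lower, LUM, DCN and PDGFRB (log2 changes -1.70, -1.34 and -0.53), and COL1A1, like LUM and DCN a matrix gene, changed by -0.028 (adjusted p = 0.9). The part of other cells in these falls was not tested.

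Of 14 matrix protease genes 7 were called lower and 4 higher, against 27.4% and 26% of all genes. With MMP9 the collagenase gene MMP8 (-1.91) and the aggrecanase family gene ADAMTS1 (-0.68) fell. The membrane-type genes MMP15 (0.64), MMP17 (0.48) and MMP24 (0.56) rose, MMP24 not without the number 2 libraries (adjusted p = 0.068), and MMP1 (0.37, adjusted p = 0.5 without the block) was called higher. The serpins split, with SERPINB5 (-1.80) and SERPINB7 (-1.50) down and the neuronal serpin SERPINI1 (1.04) up.

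Epithelial genes fell in this melanoma line. Of 8 measured keratins and other epithelial genes 6 were called lower and 1 higher (median -0.725), against 27.4% and 26% of all genes. Besides KRT80, KRT7 and KRT81, KRT14, a keratin of basal skin cells, fell from 86.3, 77.7 and 88.5 CPM to 36, 42 and 38.5 CPM (log2 change -1.11, SE 0.07, adjusted p = 6.5e-15), with no overlap. GRHL1 (0.59), an epithelial factor, rose. KRT14 is also the measured keratinocyte marker, and other markers of that cell type were not analysed here. Of 10 junction genes 4 were called lower and 1 higher, with the claudin genes CLDN4 (-0.92) and CLDN1 (-0.92) in front.

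Neuronal genes rose. Of 21 measured 16 were called higher and 2 lower (26% and 27.4% of all genes), with a median of 0.516 against 0.001 over all genes tested. Of the 21, 14 had all COMBO libraries above all SEL201 libraries, against 23.4% of all genes. SYT12 is named above, and NRXN3 (0.95), a neurexin, and TUBB3 (0.79), a neuronal tubulin, rose as well. The exceptions were KIF1A, which measured 227, 227 and 238 CPM and 66.1, 75.3 and 80.2 CPM (log2 change -1.65, SE 0.04, adjusted p = 4.4e-23), and DLG4 (-0.41), the postsynaptic scaffold PSD-95. Axon guidance genes split: of 15 semaphorins and plexins 4 were called higher and 7 lower. SEMA6B measured 101, 101 and 87.9 CPM and 20.3, 21.4 and 22.7 CPM (log2 change -2.18, SE 0.08, adjusted p = 2.8e-20), and SEMA5A (-1.85) fell nearly as far, while the receptor gene PLXNA3 (0.79) rose.

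Growth factor genes were lower more often than higher, 11 against 5 of 21 measured, where 27.4% of all genes were called lower and 26% higher, so the 5 are no more than the share over all genes. The 5 became 2 without the replicate block and 3 without COMBO library 1 or 2. Besides IGFBP5, IGFBP6 (-0.91) and VEGFC (-0.91), a lymphatic growth factor, fell, and HBEGF (0.65), an EGF receptor ligand, and NRG2 (0.30) rose. Their receptors were called higher in 5 and lower in 6 of 14, with MST1R (-1.60) the largest fall and FGFR4 (0.57) and EPHB3 (0.55) among the rises. In TGF-beta and BMP signalling 6 of 19 measured ligand, antagonist and receptor genes were called higher and 9 lower, against 26% and 27.4% of all genes. FST, FSTL1 (-0.60) and the ligand gene TGFB3 (-0.56) fell, and BMP8B (0.47), BMP6 (0.45) and the co-receptor gene TGFBR3 (0.53) rose. FST measured 75.4, 76.1 and 59.2 CPM and 18.6, 18.8 and 13.6 CPM (log2 change -2.04, SE 0.07, adjusted p = 3.8e-20), with groups far apart. Of their targets ID2 (1.12) rose and SMAD6 (-0.63), an inhibitory SMAD, fell. All 4 measured genes of the YAP and TEAD list other than the Wnt target gene AXIN2 fell, with TEAD2 (-1.33), AJUBA (-0.91), TEAD3 (-0.48) and LATS2 (-0.35), and AXIN2 (0.58) rose. That list does not hold CTGF (0.23), counted among the invasive-state genes here, which was called higher with the replicate block but not without it. In Notch signalling 2 of 12 measured genes were called higher, HEY2 (1.12) and JAG2 (0.53), and 4 lower, among them LFNG (-0.39), a modifier of the receptor. The 4 became 1 without the replicate block and 2 without COMBO library 1. Both shares are near or below those over all genes (26% higher and 27.4% lower).

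Few cell cycle genes were measured, 15 of 86 listed. Of the 15, 8 were called lower and 4 higher, against 27.4% and 26% of all genes. Of 4 DNA replication genes 3 were called lower and 1 higher (median -0.138), and 2 of 2 mitosis genes were called lower (median -0.117). E2F2 (-0.94), an S phase factor, fell, and so did CDKN1C (-1.14), the CDK inhibitor p57, while CDKN2D (0.32), another CDK inhibitor, rose. Of 15 measured genes of the p53 target list 10 were called higher and none lower (median 0.13), against 26% and 27.4% of all genes. That list does not hold GDF15 (-1.53), which is counted among the cytokine genes here and was called lower. SESN3 measured 60.5, 65 and 68.2 CPM and 160.4, 160.2 and 167 CPM (log2 change 1.33, SE 0.05, adjusted p = 6.5e-19), with no overlap. PLK3 (0.53), GADD45B (0.44) and TP53I3 (0.27) rose less. The part of p53 in the rises of SESN3 and the other listed genes was not tested. All 3 measured genes of the pro-survival list fell, CFLAR (-0.50), BCL2 (-0.25) and BCL2L2 (-0.11). BCL2A1 (-0.46), counted among the lineage genes here, was called lower as well. The call of BCL2L2 was lost without COMBO library 3 (adjusted p = 0.051). Of the 13 death genes, read against 26% higher and 27.4% lower over all genes, 2 rose, BCL2L11 (0.46), which encodes BIM, and CASP9 (0.23), and 4 fell, led by BID (-0.27).

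Metabolic groups moved little and not one way. Of 15 sterol genes 7 were called higher and 1 lower (median 0.04; 26% and 27.4% of all genes), led by SQLE (0.36) and HSD17B7 (0.35), enzymes of cholesterol synthesis. In amino acid synthesis CBS (-0.89), which makes cystathionine, and PYCR1 (-0.52), which makes proline, fell. SLC2A3 (-0.57), a glucose transporter, fell and ALDOC (0.63), an aldolase, rose. Of redox genes NXN (1.39) and SOD3 (0.83), the extracellular superoxide dismutase, rose, and GPX8 (-0.67) and the aldo-keto reductase gene AKR1C2 (-0.75) fell. AKR1C2 has near-identical relatives, so reads could be split between them. Lysosomal genes were called higher in 4 and lower in 2 of 10, led by NEU1 (0.44) and ASAH1 (0.33), and their factor TFEB (-0.67) fell. Of 14 clock genes 6 were called higher and 4 lower, against 26% and 27.4% of all genes, with NFIL3 (0.50) up and PER2 (-0.58) down. Of chromatin genes, 5 of 8 methyltransferases and demethylases were called lower and none higher, led by TET1 (-0.62), a DNA demethylase.

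The response to OTX015 in SEL201-treated cells was then set beside the response in cells without SEL201, which uses no library of the first comparison. OTX015 against UNTREATED gave 2544 genes higher (29.7% of those tested) and 2568 lower (29.9%). Of these, 1869 were higher in both comparisons, which is 83.7% of the genes called higher with SEL201 and 73.5% of those called higher without it. Lower in both were 2002 genes, or 85.2% and 78% of each list. Opposite calls were few, 17 genes higher with SEL201 and lower without it and 12 the other way. Among the genes higher in both, the change was smaller with SEL201 in 1312 (70.2%), with a median log2 change of 0.260 against 0.306 without SEL201. Among those lower in both it was smaller in 1277 (63.8%), with medians of -0.421 and -0.483.

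**Figure D5:**
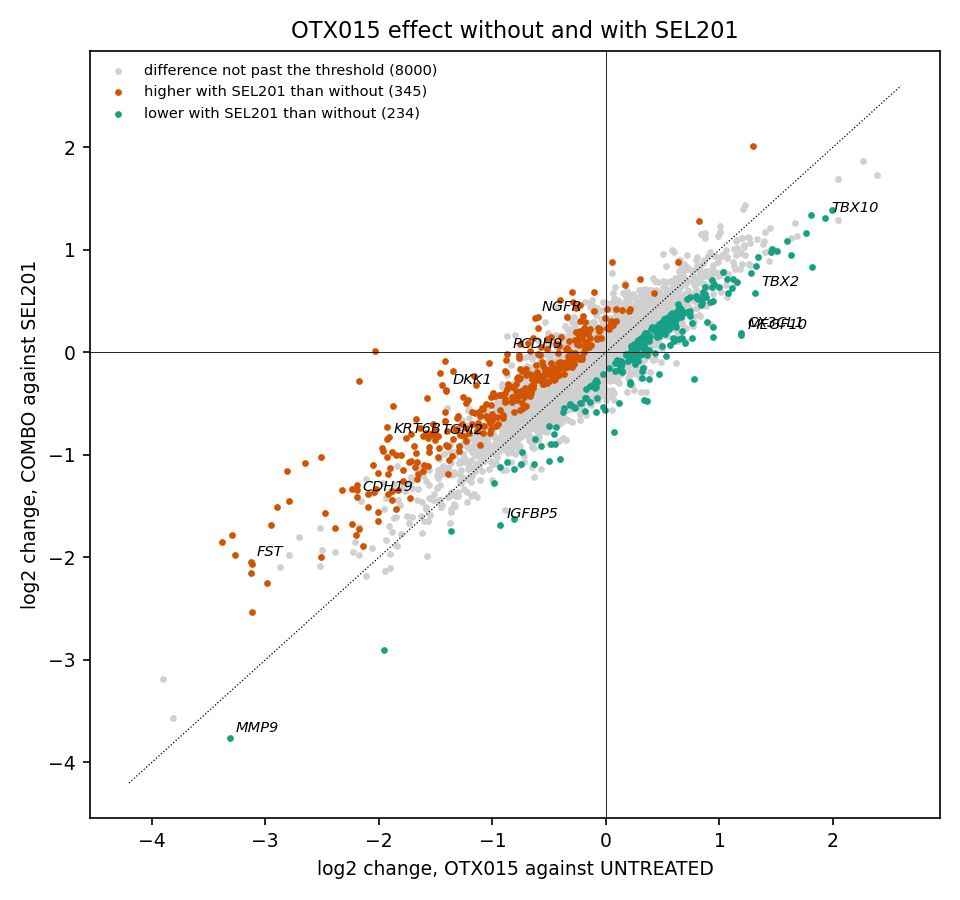
Log2 change of each gene with OTX015 in cells without SEL201 (horizontal axis) and with SEL201 (vertical axis), with the 345 genes whose change was called higher with SEL201 in orange, the 234 called lower in green, the rest in grey and a dotted line of equal change. Orange points lie above the line and mostly at negative values, as for FST, and green points lie below it, mostly at positive values, as for TBX10.

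The difference between both responses was itself tested in the same fit. The change was higher with SEL201 in 345 genes (4.02% of those tested) and lower in 234 (2.73%). Without the replicate block these counts were 18 and 6, so most of these calls rest on the pairing of the libraries. The 234 became 154 without SEL201 library 2, 147 without COMBO library 1 and 145 without COMBO library 2. Of the 345 genes, 305 (88.4%) fell with OTX015 alone and changed less with SEL201. Of the 234, 175 (74.8%) rose with OTX015 alone and changed less with SEL201.

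KRT6B, a keratin gene, had the lowest p among the genes less lowered. It measured 500.3, 489.8 and 634 CPM in UNTREATED and 138, 128 and 159 CPM in OTX015, a log2 change of -1.93, but 298, 279 and 345 CPM in SEL201 and 155, 172 and 184 CPM in COMBO, a change of -0.85 (log2 difference 1.08, SE 0.06, adjusted p = 3e-13). The level without OTX015 was lower where SEL201 was present, and the levels with OTX015 lay closer together. TGM2 measured 619.9, 605 and 873 CPM in UNTREATED and 222, 215 and 298 CPM in OTX015, a change of -1.51 against -0.86 with SEL201 (log2 difference 0.65, SE 0.05, adjusted p = 3e-10, and 0.4 without the replicate block). FST changed by -3.13 without and -2.04 with SEL201 (log2 difference 1.08, SE 0.10, adjusted p = 7.5e-09). PCDH9, a protocadherin gene, changed by -0.87 without SEL201 and by -0.02 with it (log2 difference 0.86, SE 0.07, adjusted p = 1.5e-09): it measured 186, 202 and 188 CPM in UNTREATED and 103, 108 and 103 CPM in OTX015, against 115, 108 and 118 CPM in SEL201 and 104, 118 and 115 CPM in COMBO. The falls of CDH19 (-2.20 and -1.41) and DKK1 (-1.41 and -0.37) were also smaller with SEL201. Their log2 differences were 0.78 and 1.04, called with the block but not without it (adjusted p = 0.17 and 0.36).

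Among the genes raised less, TBX2 measured 232, 209 and 189 CPM in UNTREATED and 561, 477 and 528 CPM in OTX015, a change of 1.31 against 0.58 with SEL201 (log2 difference -0.73, SE 0.07, adjusted p = 5.8e-09). TBX10 changed by 1.93 and 1.31 (log2 difference -0.62, SE 0.07, adjusted p = 2.4e-07, and 0.11 without the replicate block). MEGF10, an engulfment receptor gene, changed by 1.19 without SEL201, and by 0.17 with it (log2 difference -1.02, SE 0.12, adjusted p = 4.6e-07, and 0.39 without the replicate block). SESN3 changed by 1.80 and 1.33 (log2 difference -0.47, SE 0.08, adjusted p = 0.00012). In the other direction some falls were larger with SEL201. IGFBP5 changed by -0.93 without and -1.68 with it (log2 difference -0.75, SE 0.07, adjusted p = 7.5e-09, and 0.84 without the replicate block), ZP4 by -1.95 and -2.90 (log2 difference -0.95, SE 0.21, adjusted p = 0.003, and 0.35 without the replicate block, 0.051 without OTX015 library 3) and MMP9 by -3.31 and -3.76 (log2 difference -0.45, SE 0.08, adjusted p = 0.00016, and 0.85 without the replicate block). EFR3B rose more with SEL201, by 2.01 against 1.29 (log2 difference 0.71, SE 0.16, adjusted p = 0.0044, and 0.35 without the replicate block).

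Among the opposite calls was ELL2, which was lower with OTX015 alone (-0.18) and higher with SEL201 present (0.29) (log2 difference 0.47, SE 0.05, adjusted p = 2.3e-07). It measured 329, 362 and 346 CPM in UNTREATED, 288, 313 and 315 CPM in OTX015, 244, 243 and 261 CPM in SEL201 and 282, 312 and 324 CPM in COMBO, so the level without OTX015 was the one that differed between the settings, 346 ± 16.6 CPM in UNTREATED against 249 ± 10 CPM in SEL201 (SD, n = 3). CCNA1, a cyclin gene, changed by -0.23 and 0.30 (log2 difference 0.53, SE 0.08, adjusted p = 2.1e-05). ELL2 is a member of the super elongation complex named above, and CCNA1 was named after its values were seen. Of the opposite calls, only ELL2 and CCNA1 kept a called difference without the replicate block (adjusted p = 0.03 and 0.033). Nearly all the others also lost their call there in COMBO against SEL201, in OTX015 against UNTREATED or in both.

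Over all genes the difference was called higher in 4.02% and lower in 2.73%, and at such shares few calls fall in groups of this size. It was called in none of the 11 histone genes and none of the 9 class I genes, in 3 of the 31 antiviral effectors and in 2 of the 5 sensors. The histone genes had a median of 0.899 without SEL201 and 0.945 with it, and the antiviral effectors -0.62 and -0.627. The invasive-state genes had medians of -1.019 without and -0.438 with SEL201, the matrix proteins -0.748 and -0.452, and the keratins and epithelial genes -1.197 and -0.725. These medians are a description and were not tested as groups.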

How the data were processed

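Stranded poly(A) RNA libraries were sequenced from both ends, per the labels' protocols. The deposited values are raw counts by gene symbol, 1 column for each library. Per the submitters' processing notes the build was hg19 and the tools included STAR 2.5.4b, featureCounts, SAMtools 1.9, Trimmomatic, FastQC and DESeq2, with no role stated for any. Not given in the sources used here were the annotation, the strandedness of counting and how genes were selected, and overlapping genes and near-identical copies may share reads.

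From these counts 1 model was fitted over all 12 libraries with edgeR 4.0.16 in R 4.3.3 (glmQLFit and glmQLFTest, TMM scaling, filterByExpr, group plus replicate number as a block, 6 residual degrees of freedom). P-values were adjusted over all 8579 genes (Benjamini-Hochberg), and a call is an adjusted p under 0.05. Contrasts were COMBO against SEL201, OTX015 against UNTREATED and their difference. CPM use TMM-scaled totals. The residual biological coefficient of variation was 4.35% with the block and 7.92% without it.

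The numbers were taken as pairs because deviations from the group means correlated at 0.32 to 0.49 in the 3 same-numbered COMBO and SEL201 pairs, and at -0.36 to 0.03 in the other 6. In the other 15 same-numbered pairs they were 0.26 to 0.57. The labels do not say what a number marks. No libraries of a group agreed within sampling noise.

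The comparison, the 25 gene lists (76 roles, 581 of 1490 symbols measured) and the tests were chosen with earlier results of these data known. Named were the 12 largest rises and falls, the 8 largest among genes of at least 200 CPM, up to 4 members with the lowest p per role and those against its direction, the 6 lowest p each way of the difference, drug targets, TGM2 and cell type markers; a few of these are not reported here. The 12 and the 8 had a mean of at least 5 CPM, the same direction in all 3 number pairs and groups that did not overlap. DHX58, IFIT3, CCNA1 and the genes whose promoters are printed were chosen after their values were seen. Promoters of 6047 of the 8579 genes were matched by symbol in the RefSeq table. The ratio of numbered libraries in the plot of interferon and histone genes adds 0.5 CPM. The test was also run on simulated data, with no outcome reported here, so no conclusion about the calls is drawn from that run. Alternatives were other scalings, DESeq2 1.42.0, other filters, no block, only the compared groups, and leaving out libraries.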

Additional observations from a re-analysis of the deposited data

Results flagged for a closer look

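The effect of OTX015 differed with and without SEL201, by the test of the difference in the same edgeR fit (adjusted p under 0.05). The log2 change was higher with SEL201 in 345 genes and lower in 234, and without the replicate block in 18 and 6. The genes named in the report or under the other observations that passed this test are given here with their log2 differences, (COMBO against SEL201) minus (OTX015 against UNTREATED). Groups of 3 libraries are too small for the search for single libraries that stand apart.

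Genes with a negative log2 change for OTX015 alone and a smaller change in size with SEL201 were SEMA5A at 1.53, SERPINB7 at 1.39, FST at 1.08, KRT6B at 1.08, NNMT at 1.05, DKK1 at 1.04, IL1RL1 at 0.98, DCN at 0.90, PCDH9 at 0.86 and CDH19 at 0.78. Next came CLDN1 at 0.77, KRT80 at 0.74, NTN4 at 0.74, COL1A1 at 0.73, TGM2 at 0.65, IL7R at 0.58, NUAK1 at 0.58, AKR1C2 at 0.56, VEGFC at 0.50 and PTGS2 at 0.50. Smaller were LAMB3 at 0.46, KRT14 at 0.45, CEMIP at 0.45, IL32 at 0.45, FSTL1 at 0.40, IGFBP6 at 0.38, KIF1A at 0.36, IFIH1 at 0.33, SOCS3 at 0.32 and MITF at 0.30. After these were TMEM173 at 0.30, GPNMB at 0.25, FOSL2 at 0.24 and LOXL4 at 0.23.

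Genes with a positive log2 change for OTX015 alone and a smaller change in size with SEL201 were MEGF10 at -1.02, SOD3 at -0.98, TBX2 at -0.73, ID4 at -0.68, TBX10 at -0.62, NXN at -0.60, AFAP1L2 at -0.60, EGR1 at -0.50, HTRA1 at -0.48 and SESN3 at -0.47. Next came NUDT8 at -0.46, SLC35F1 at -0.41, MMP17 at -0.37, MMP15 at -0.36, FGFR4 at -0.31, NTN1 at -0.29 and IRF7 at -0.25. The log2 change was larger in size with SEL201 for ZP4 at -0.95, IGFBP5 at -0.75, EFR3B at 0.71, KDR at 0.69, CCNA1 at 0.53, ELL2 at 0.47, MMP9 at -0.45, CBS at -0.41, MFAP2 at -0.38 and CDKN1C at -0.32. Next came TNFSF9 at 0.27, DUSP1 at 0.20, FBN1 at 0.20, CTGF at 0.20 and PYCR1 at -0.20.

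Without the replicate block the difference stayed past the threshold for CCNA1, ELL2, FST, KRT6B, NNMT, NTN4, PCDH9, SESN3 and TBX2.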

How the results depend on the processing

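Without the replicate block the difference of the OTX015 effect was called higher in 18 genes and lower in 6, against 345 and 234 with it. COMBO against SEL201 gave 1615 genes higher and 1823 lower without the block, and OTX015 against UNTREATED 1998 and 2117. Leaving out 1 library or all libraries of a number gave 1708 to 2242 higher and 1906 to 2370 lower for COMBO against SEL201, 2117 to 2602 and 2245 to 2626 for OTX015 against UNTREATED, and 210 to 318 and 101 to 274 for the difference. The other alternatives (scaling, filter, DESeq2, only the compared groups) gave 1953 to 2288 and 2223 to 2535 for COMBO against SEL201 and 309 to 364 and 183 to 317 for the difference. Of 202 named genes called in COMBO against SEL201, 189 stayed past the threshold under every alternative, 9 lost it without the block, and none changed direction. PCDH9, which was not called, had a log2 change of -0.02, and of -0.094 to 0.048 when libraries were left out, above 0 without SEL201 library 1, SEL201 library 3, COMBO library 1 or the number 1 libraries. COL1A1, not called either, ranged from -0.190 to 0.091 when libraries were left out. MMP24 lost its call without the number 2 libraries (adjusted p = 0.068). The difference of EFR3B lost its call without the number 3 libraries (adjusted p = 0.092), as did that of ZP4 (0.12). Counts are relative to the genes in the table, so a change shared by most of them cannot be seen. Depth limits the fold of the lowest genes most: KRT81 measured 0.259, 0.231 and 1.19 CPM in COMBO.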

Other observations

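Over all genes tested 26% were called higher and 27.4% lower in COMBO against SEL201, and the shares in the small groups here are to be read against these. Of 6 hypoxia response genes 3 were called higher and 1 lower, none lower without the block or without the libraries of number 1 or 3. EPAS1 (0.68), the gene of HIF-2 alpha, BNIP3L (0.41), a mitophagy receptor, and EGLN3 (0.43), a prolyl hydroxylase, were called higher, and CA12 (-0.37, adjusted p = 0.17 without the block), a carbonic anhydrase, lower. The call of EGLN3 was lost without SEL201 library 1, SEL201 library 2 or COMBO library 3 (adjusted p = 0.08, 0.051 and 0.15, the last with a log2 change of 0.286), and without the libraries of number 2 or 3 (0.053 and 0.067). EPAS1 measured 25.7, 30.4 and 28.9 CPM and 41.5, 46.6 and 48.7 CPM. Of 7 genes of the PI3K pathway 4 were called higher and 3 lower, 1 without the replicate block. INPP5D, the gene of the phosphatase SHIP1, fell from 8.71, 9.76 and 11 CPM to 4.48, 3.42 and 4.37 CPM (log2 change -1.26, SE 0.16, adjusted p = 7.9e-08), and the regulatory subunit gene PIK3R3 rose from 213, 211 and 214 CPM to 318, 315 and 328 CPM (log2 change 0.59, SE 0.04, adjusted p = 1.8e-14). The groups of INPP5D, PIK3R3 and EPAS1 did not overlap.

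Of 13 Wnt pathway genes 4 were called higher, 2 without the block or without SEL201 library 1 or 3, and 4 lower, near the shares over all genes. The ligand genes WNT10B (-0.65) and WNT3 (-0.49) and the receptor gene FZD2 (-0.60) fell, and the receptor gene FZD4 (0.34) rose. Among netrin, slit and other guidance genes, NTN1 (0.66), which encodes netrin 1, rose and NTN4 (-0.49) fell. NTN1 measured 71.2, 69 and 94.2 CPM in SEL201 and 119, 109.7 and 139 CPM in COMBO.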
